A study of Mus musculus with 2 samples.

Results

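Meis1, Meis2, Meis3, Pbx2 and Pbx3 encode homeodomain cofactors, and their transcripts were described here in single cells of the mouse embryo, gene by gene and cell class by cell class. The genes were chosen by symbol, and they are 5 of the 52550 gene identifiers in the count tables. The 2 Drop-seq libraries, replicates 1 and 2, came from wild-type CD1 embryos at embryonic day 10.0. Each library pooled the posterior second heart field and the heart tube of about 80 embryos. Both libraries belong to 1 group, with no treatment and no mutant allele, so the comparisons below are between cell classes within the libraries. The posterior second heart field is the mesoderm behind the heart that supplies cells to the atria and the inflow end of the heart tube. Because embryos and tissues were pooled, n is 2 pools throughout, and neither the dissected part nor the embryo of a cell is known.

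Meis and Pbx proteins belong to the TALE class of homeodomain proteins, named for an extra loop of residues in the homeodomain. They bind DNA with one another and with Hox proteins, and a Meis partner helps to carry Pbx proteins into the nucleus. Meis proteins are known for their parts in heart, limb, eye and blood development, and Pbx proteins in patterning of limbs, face and outflow tract. Several Meis genes are known to respond to retinoic acid, a signal made in the mesoderm behind the heart.

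The homeodomain is the stretch the members share, so its coding sequence shows how alike the paralogs are. The 5 coding stretches, each of 63 codons, are given 5′ to 3′ from GENCODE M21 transcripts (GRCm38), with the 9 bases that encode the 3 loop residues in capitals.
Meis1: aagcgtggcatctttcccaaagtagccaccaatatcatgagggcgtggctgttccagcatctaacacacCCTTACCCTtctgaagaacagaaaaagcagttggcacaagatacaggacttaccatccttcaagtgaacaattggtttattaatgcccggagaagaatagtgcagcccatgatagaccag
Meis2: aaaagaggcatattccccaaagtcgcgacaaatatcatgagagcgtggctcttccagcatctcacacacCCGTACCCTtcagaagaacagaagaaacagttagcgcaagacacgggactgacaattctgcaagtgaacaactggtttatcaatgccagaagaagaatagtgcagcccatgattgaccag
Meis3: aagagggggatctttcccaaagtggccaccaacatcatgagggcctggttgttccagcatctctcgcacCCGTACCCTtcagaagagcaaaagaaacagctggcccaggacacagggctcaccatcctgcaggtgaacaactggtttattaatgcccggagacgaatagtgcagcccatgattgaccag
Pbx2: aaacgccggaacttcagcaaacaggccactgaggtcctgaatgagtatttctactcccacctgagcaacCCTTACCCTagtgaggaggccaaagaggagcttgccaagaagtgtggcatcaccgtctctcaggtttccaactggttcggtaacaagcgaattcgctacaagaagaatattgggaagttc
Pbx3: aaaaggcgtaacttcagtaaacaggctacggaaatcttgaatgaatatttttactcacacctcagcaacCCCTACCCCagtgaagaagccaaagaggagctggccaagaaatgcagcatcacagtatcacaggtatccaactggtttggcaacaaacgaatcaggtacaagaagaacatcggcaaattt
Meis1 and Meis2 differed at 28 of the 189 bases, and 0 of the 63 codons encoded a different residue. Meis3 differed from Meis1 at 27 bases and from Meis2 at 31, with 1 codon for a different residue in each pair. Pbx2 and Pbx3 differed at 36 bases and 2 codons for different residues. Between the Meis and the Pbx stretches, base identity ran from 47.6% to 52.9%, and 35 or 36 codons encoded different residues. The Meis homeodomains thus differ by at most 1 residue from one another, whichever of the genes a cell transcribes. The stretch was in 4 of 4 coding Meis1 transcripts with an annotated start, 6 of 6 for Meis2, 2 of 4 for Meis3, 3 of 4 for Pbx2 and 2 of 5 for Pbx3, and the tables do not tell transcripts of a gene apart.

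In GRCm38, Meis1 (ENSMUSG00000020160.18) lies on chromosome 11 from 18879817 to 19018985, on the minus strand. Meis2 (ENSMUSG00000027210.20) is on chromosome 2 from 115863064 to 116065839, also on the minus strand. Pbx3 (ENSMUSG00000038718.15) shares chromosome 2 and strand, from 34171457 to 34373142. Meis3 (ENSMUSG00000041420.18) lies on the plus strand of chromosome 7 from 16175090 to 16186504. Pbx2 (ENSMUSG00000034673.14) lies on the plus strand of chromosome 17 from 34591266 to 34597400. The counts are of whole genes, with exons, introns and UTRs not told apart. Pbx2 overlaps Gpsm3 on the same strand, which had 238 UMIs (unique molecular identifiers, 1 per captured transcript) in the kept cells against 975 for Pbx2. Meis1 overlaps 5 annotated genes, 3 of them on its own strand, which had 14 to 85 UMIs each against 2725 for Meis1. No source used here says how reads in these overlaps were assigned.

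The tables held 5000 barcodes with 11958912 UMIs in replicate 1 and 7497 barcodes with 14131384 UMIs in replicate 2. After removal of shallow, mitochondria-rich and likely doublet barcodes, 3864 and 4743 cells were kept, with a median of 1375.5 and 1503 UMIs. The libraries shared 82 barcode sequences. Cells were grouped into 28 clusters without use of the 5 genes or of any gene list described below. Of the clusters, 20 formed 15 classes, and the other 8, with 31.9% and 29.1% of cells, stayed unnamed. The main classes for this tissue were 1192 cells that carried both second heart field and foregut mesenchyme markers (SHF or foregut mesenchyme-like; SHF, second heart field) and 383 cardiomyocyte-like cells. One class of 260 cells, led by Dlx5 and Dlx6, carried Hoxa9 among its 10 leading genes, which goes against pharyngeal ectomesenchyme, and is called Dlx5-high. Hoxa9 had 46 UMIs in its 61 cells of replicate 1 and 13 in its 199 cells of replicate 2, so this reason rests mainly on replicate 1. The foregut endoderm-like class joined a cluster led by Vgll2, Fgf8 and Pax9 with one led by Shh and Nkx2-1, and the endocardial or endothelial-like class held a cluster led by Pf4, a megakaryocyte gene. Levels are CPM, the UMIs of a gene scaled to the UMIs of its class in a library (counts per 1000000), with the mean ± SD over the 2 libraries. In summed cells, fewer cells with a transcript and less RNA per cell cannot be told apart. A UMI is counted once whatever the length of its transcript, so levels of different genes were compared without division by length unless stated.

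Meis2 was the most abundant member, with 281 CPM in replicate 1 and 272 CPM in replicate 2 over all kept cells. Meis1 stood at 113 and 114 CPM, Meis3 at 54.5 and 57.2, Pbx2 at 42.1 and 39.4, and Pbx3 at 37.4 and 35.6. The libraries lay close together for each gene, so the pools gave the same order.

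Meis2 was highest in mesoderm and ectoderm outside the heart. Pharyngeal mesoderm-like cells held 573 and 589 CPM, limb, body wall or ectomesenchyme-like cells 490 and 514 CPM, and surface ectoderm-like cells 536 and 467 CPM. Paraxial mesoderm-like cells followed with 513 and 352 CPM. SHF or foregut mesenchyme-like cells held 334 and 266 CPM, neuron-like cells 275 and 321 CPM, Dlx5-high cells 343 and 249 CPM, and foregut endoderm-like cells 256 and 323 CPM. The libraries of these 4 classes overlapped, and neighbours among them did not differ beyond their spread. Neural tube-like (251 ± 42.2 CPM) and neural crest or glia-like cells (207 ± 71.2 CPM) came next. Cardiomyocyte-like cells ranked below them with 183 and 133 CPM, beside epicardial or mesothelial-like cells with 184 and 107 CPM. Endocardial or endothelial-like cells held 94.9 and 89.3 CPM, hepatoblast-like cells 78.9 and 32.7 CPM, and erythroid-like cells 5.59 and 15.6 CPM.

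Meis1 was highest in surface ectoderm-like and SHF or foregut mesenchyme-like cells, and cardiomyocyte-like cells stood in the middle of its order. Surface ectoderm-like cells held 199 and 188 CPM and SHF or foregut mesenchyme-like cells 180 and 183 CPM. Limb, body wall or ectomesenchyme-like cells held 150 and 153 CPM, neural tube-like cells 111 and 167 CPM, and paraxial mesoderm-like cells 165 and 112 CPM. Pharyngeal mesoderm-like cells, the highest class for Meis2, held 126 and 127 CPM, and cardiomyocyte-like cells held 133 and 116 CPM. From the limb class down to cardiomyocyte-like cells the libraries of neighbours overlapped, and no neighbours among these 7 classes passed the test. Epicardial or mesothelial-like (57.5 and 125 CPM) and neuron-like cells (133 and 37.7 CPM) varied most between the libraries, the latter on 14 and 4 UMIs. Dlx5-high, foregut endoderm-like, neural crest or glia-like and hepatoblast-like cells had means from 83.3 down to 55.2 CPM. Endocardial or endothelial-like cells held 32.2 and 25.3 CPM and erythroid-like cells 2.79 and 4.59 CPM.

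Meis3 was highest in the neural classes. Neuron-like cells held 275 and 283 CPM, neural crest or glia-like cells 85.4 and 118 CPM, and neural tube-like cells 43.0 and 127 CPM. Cardiomyocyte-like cells came next with 81.3 and 69.8 CPM, just above SHF or foregut mesenchyme-like cells with 68.3 and 75.2 CPM, whose libraries overlapped with theirs. The 8 classes below them had means from 66.8 down to 20.6 CPM. Endocardial or endothelial-like cells held 14.3 and 14.9 CPM and erythroid-like cells 3.73 and 3.67 CPM. Both neuron-like libraries stood above both libraries of every other class, on 29 and 30 UMIs.

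Pbx2 was near-uniform, with means from 58.0 ± 11.8 CPM in pharyngeal mesoderm-like cells to 29.0 ± 5.24 CPM in hepatoblast-like cells over 14 classes. Erythroid-like cells stood below all of them with 6.52 and 9.18 CPM. Pbx3 was highest in cardiomyocyte-like cells with 68.4 and 65.9 CPM, above every other class in both libraries. Epicardial or mesothelial-like cells held 48.9 and 62.6 CPM, Dlx5-high cells 55.7 and 49.9 CPM, SHF or foregut mesenchyme-like cells 54.2 and 50.1 CPM, and neural tube-like cells 46.1 and 53.0 CPM. At the low end were foregut endoderm-like cells with 12.3 and 20.5 CPM, endocardial or endothelial-like cells with 14.3 and 16.4 CPM, and erythroid-like cells with 8.38 and 6.42 CPM. The remaining 7 classes had means from 41.6 to 18.7 CPM. An unnamed cluster of 75 cells led by Nepn and Tdh, with the gut genes Cdx2 and Pdx1 next, had 0 Pbx3 UMIs in both libraries. With 169338 and 85352 UMIs in that cluster, a count of 0 allows up to 17.7 and 35.1 CPM, so absence cannot be read from it.

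**Figure D1:**
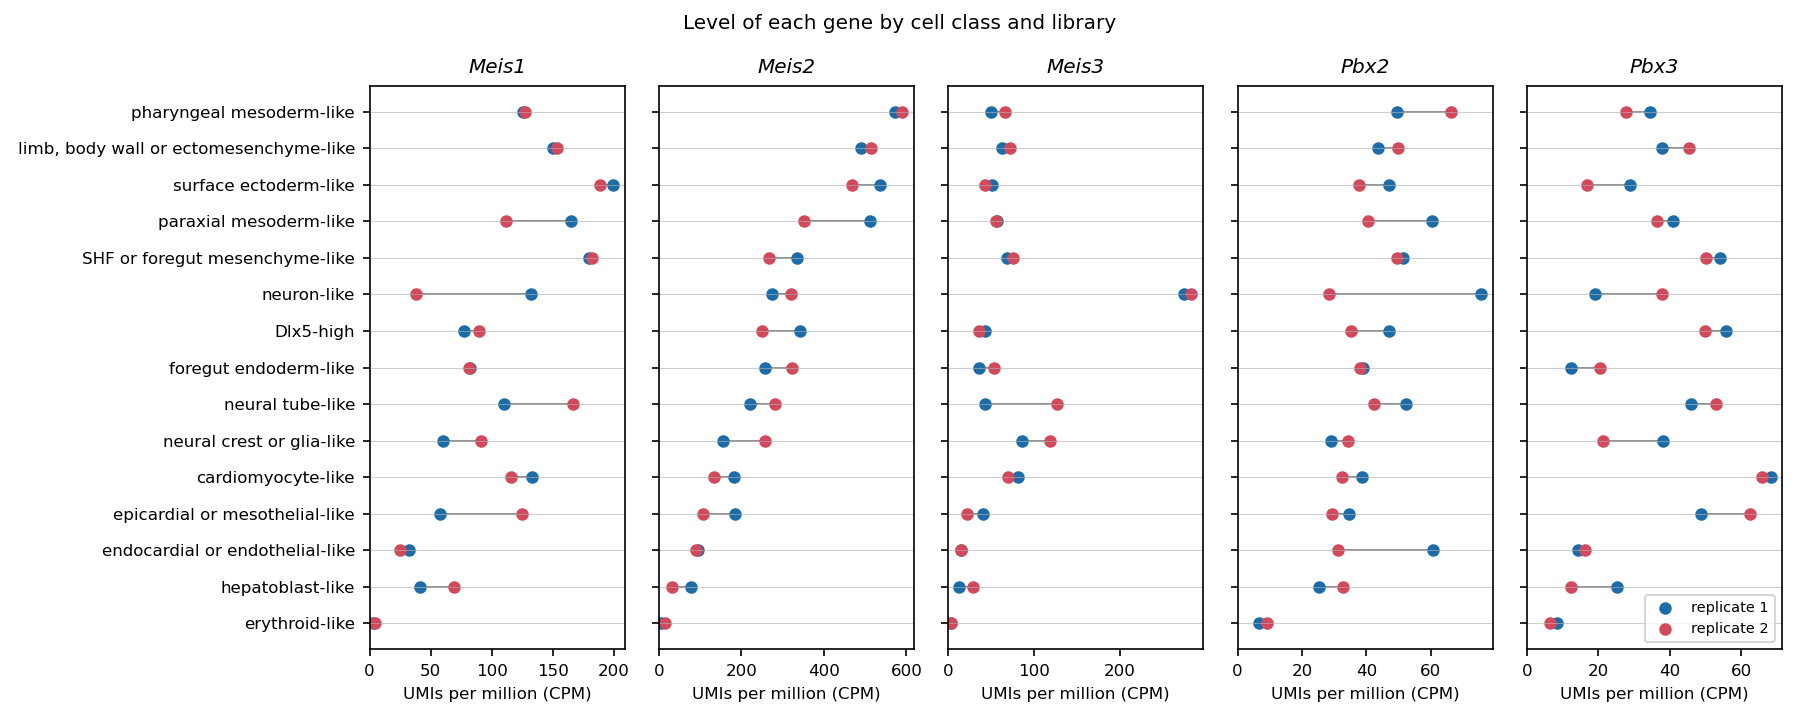
Level of each gene (x axis, CPM, linear) in 15 cell classes (y axis, ordered by mean Meis2 level), with 1 point for each library and a line joining the 2. Meis2 is highest in pharyngeal mesoderm-like cells, Meis1 in surface ectoderm-like and SHF or foregut mesenchyme-like cells, Meis3 in neuron-like cells and Pbx3 in cardiomyocyte-like cells, while Pbx2 varies least.

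Each class was tested against the mean of the other 14 with edgeR's quasi-likelihood test on UMI sums per class and library. That mean was taken on the log scale, so classes with very low levels, such as erythroid-like cells, pull it down. A class in the middle of a member's order can therefore be called higher. The p-values measure the spread between libraries left after the class and library terms, pooled over classes and genes. They do not measure the spread over further embryo pools. Adjustment was by Benjamini-Hochberg over the 3442 genes tested. These are genes left out of the clustering that passed a filter on low counts, so they hold none of the markers used to name classes. Mitochondrial, ribosomal protein and haemoglobin genes were all left out of the clustering, so those that passed the filter are among them. Shares of all genes given here and below are shares of these 3442. Of the 75 pairs of member and class, 21 were higher and 12 lower, against a background of 10.4% higher and 4.77% lower over all gene and class pairs. Meis1 was higher in 6 classes, led by surface ectoderm-like cells (log2 fold change 1.27 ± 0.17 SE, edgeR adjusted p = 6.89e-08) and SHF or foregut mesenchyme-like cells (1.18 ± 0.12, edgeR adjusted p = 7.93e-12). It was also higher in limb, body wall or ectomesenchyme-like, paraxial mesoderm-like, neural tube-like and cardiomyocyte-like cells, by 0.72 to 0.89. Meis2 was higher in 7 classes, led by pharyngeal mesoderm-like cells (1.54 ± 0.15, edgeR adjusted p = 2.52e-12). Limb, body wall or ectomesenchyme-like and surface ectoderm-like cells followed at 1.33 each and paraxial mesoderm-like cells at 1.10. For Meis2 the SHF or foregut mesenchyme-like cells were higher by only 0.55 ± 0.11 (edgeR adjusted p = 0.00031).

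Meis3 was higher in 5 classes: neuron-like cells (2.63 ± 0.27, edgeR adjusted p = 1.89e-11), neural crest or glia-like cells (1.18), neural tube-like cells (0.86), cardiomyocyte-like cells (0.82) and SHF or foregut mesenchyme-like cells (0.62). Pbx3 was higher in cardiomyocyte-like cells (1.26 ± 0.20, edgeR adjusted p = 8.89e-07), Dlx5-high cells (0.79) and SHF or foregut mesenchyme-like cells (0.76). Cardiomyocyte-like cells were therefore called higher for Meis1, Meis3 and Pbx3, where 18.2% of all genes were called higher. In the order of mean levels they ranked 7 for Meis1 and 4 for Meis3, so these 2 calls do not make them a leading class. SHF or foregut mesenchyme-like cells were called higher for all members except Pbx2, where 10.1% of all genes were. Pbx2 was higher in 0 classes.

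Erythroid-like cells were lower for all 5 members, from -3.72 for Meis1 to -1.18 for Pbx3, where 24% of all genes were called lower in that class. Endocardial or endothelial-like cells were lower for 4 members, with Meis3 at -1.74, Meis1 at -1.59, Meis2 at -1.19 and Pbx3 at -1.02, where 5.93% of all genes were called lower. Pbx2 held 60.9 and 31.3 CPM there and did not pass the test. The sums of this class include its Pf4-led cluster, which was not tested apart. Hepatoblast-like cells were lower for Meis2 (-1.95) and Meis3 (-1.33), with 3.95% of all genes called lower, and foregut endoderm-like cells for Pbx3 (-0.98).

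Several of these calls depended on the setting. In SHF or foregut mesenchyme-like cells the Meis2 call was lost without the library term and with DESeq2, and the Meis3 call in both of these and after thinning to 1000 UMIs per cell. Pbx3 kept its call there in 9 of 10 settings and lost it after thinning. In Dlx5-high cells the Pbx3 call was lost in 5 of 7 settings and the Meis2 call in 4 of 7. The lower Meis3 calls were lost in 6 of 10 settings for hepatoblast-like cells, where the difference ranged from -1.39 to -0.18, in 4 of 10 for endocardial or endothelial-like cells and in 3 of 10 for erythroid-like cells. The Meis2 call in foregut endoderm-like cells was lost in 3 of 10, and each other call in at most 2. Without the library term, 13 pairs in place of 21 were higher.

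In the order of levels, few neighbouring classes differed from each other. Of 14 neighbouring pairs for each gene, edgeR called 1 for Meis1, 2 for Meis2, 1 for Meis3 and 0 for Pbx2 and Pbx3. Over the same pairs 13.3% of all genes were called. The pairs were set by each member's own order of levels, which makes its differences small. The counts for the members therefore cannot be set against that share. For Meis2, paraxial mesoderm-like cells exceeded SHF or foregut mesenchyme-like cells (log2 fold change 0.52 ± 0.16, edgeR adjusted p = 0.0346), and hepatoblast-like exceeded erythroid-like cells. For Meis1, endocardial or endothelial-like cells exceeded erythroid-like cells, and for Meis3 neuron-like exceeded neural crest or glia-like cells (1.35 ± 0.27, edgeR adjusted p = 0.000279). In 9 to 13 of the 14 pairs for each gene the 2 libraries of the neighbours overlapped.

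The share of Meis UMIs that came from each paralog shows which gene dominates in a class. Meis2 had the largest share in both libraries in 12 of 15 classes, with a mean share of 75.9% ± 0.895 in pharyngeal mesoderm-like cells and 54.1% ± 4.64 in SHF or foregut mesenchyme-like cells. The count takes any lead, whatever its size. It includes erythroid-like cells, where no Meis gene led in both libraries with at least 800 genes per cell or after thinning. In cardiomyocyte-like cells the shares were nearer to each other, with Meis2 at 46.1% and 41.7%, Meis1 at 33.4% and 36.4%, and Meis3 at 20.5% and 21.9%. In neuron-like cells Meis2 and Meis3 tied at 29 UMIs each in replicate 1, and Meis2 led with 34 against 30 UMIs in replicate 2. Hepatoblast-like and epicardial or mesothelial-like cells were led by Meis2 in replicate 1 and by Meis1 in replicate 2. Meis1 and Meis3 led in both libraries in 0 classes.

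Meis3 took the largest share in some classes if UMIs were divided by length. A UMI is counted once whatever the length of its transcript, so the shares above do not need this division. Divided by merged exon length, which is 3173 bases for Meis3 against 10532 for Meis1 and 12043 for Meis2, the mean share was largest for Meis3 in 6 classes and for Meis2 in 9. In cardiomyocyte-like cells Meis3 then took 48.8% against 26.9% for Meis2, and in neuron-like cells 72.8% against 20.5%. In SHF or foregut mesenchyme-like cells Meis2 stayed ahead per base, with 38.5% against 34.9% for Meis3.

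Pbx shares cover Pbx2 and Pbx3 only and are not shares of the whole Pbx family. Pbx3 had the larger share in both libraries in 4 classes: cardiomyocyte-like (65.5% ± 2.30), epicardial or mesothelial-like (63.3% ± 6.63), Dlx5-high (56.4% ± 3.09) and SHF or foregut mesenchyme-like cells (50.8% ± 0.678). Pbx2 led in both libraries in 6 classes, with the largest shares in endocardial or endothelial-like cells (73.3% ± 10.8) and foregut endoderm-like cells (70.4% ± 7.76). In 5 classes neither gene led in both. The exact 95% binomial intervals lay on 1 side of 50% in both libraries in cardiomyocyte-like and foregut endoderm-like cells, and included 50% in at least 1 library of each of the other classes. Per base of merged exon, a division that UMI counts do not need, Pbx3 led in 2 classes. These were cardiomyocyte-like (53.0%) and epicardial or mesothelial-like cells (50.9%).

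**Figure D2:**
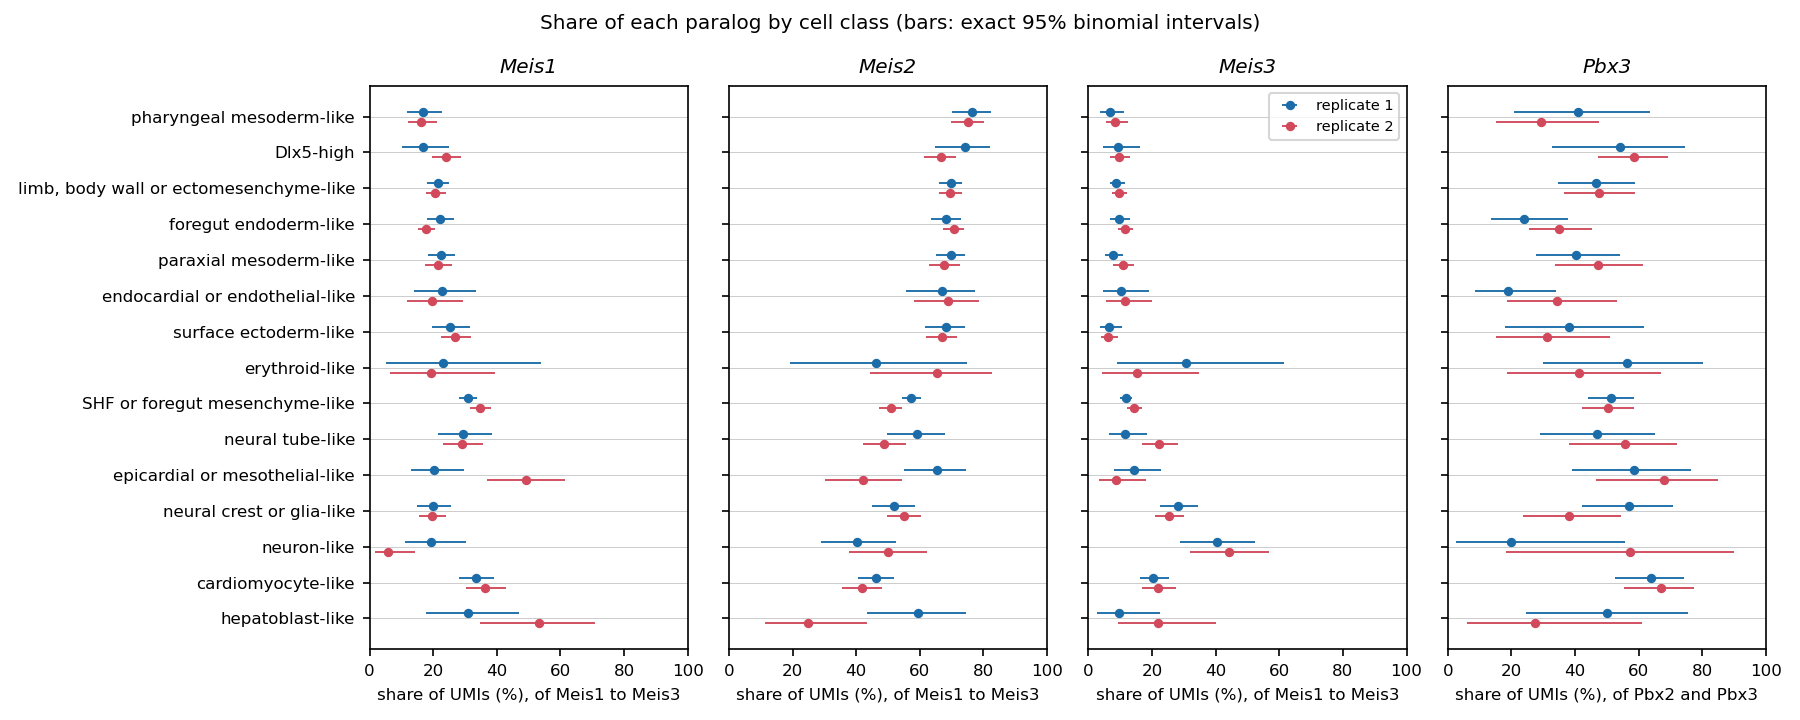
Share of Meis1, Meis2 and Meis3 in the UMIs of the 3 Meis genes, and of Pbx3 in those of Pbx2 and Pbx3 (x axes, percent), in 15 classes ordered by Meis2 share, with 1 point per library and exact 95% binomial intervals that cover counting error only. Meis2 takes over 40% in both libraries of most classes, Meis3 reaches 40% only in neuron-like cells, and Pbx3 stands above 60% in both libraries of cardiomyocyte-like cells.

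The comparison nearest to the dissected tissue sets SHF or foregut mesenchyme-like against cardiomyocyte-like cells. With the levels given above, the Meis2 libraries of the 2 classes did not overlap, at 334 and 266 CPM against 183 and 133 CPM. The difference was 0.82 ± 0.18 on the log2 scale (edgeR adjusted p = 0.000256), higher in the mesenchyme in 2 of 2 libraries. Meis1 was also higher in both mesenchyme libraries, by 0.43 ± 0.17, and missed the threshold (edgeR adjusted p = 0.0530). Pbx2 differed by 0.40 ± 0.24 (edgeR adjusted p = 0.244), Meis3 by -0.18 ± 0.20 (edgeR adjusted p = 0.561) and Pbx3 by -0.47 ± 0.24 (edgeR adjusted p = 0.154). Of the 5 members 1 was thus called, while 11.5% of the 3442 genes were called higher and 13.5% lower in the mesenchyme. The Pbx3 libraries did not overlap, with both cardiomyocyte-like libraries higher, whereas those of Meis3 did.

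The Meis2 call depended on how cells were selected. With at least 800 genes per cell the difference was 0.17 (edgeR adjusted p = 0.525), and in that setting cardiomyocyte-like cells held 265 and 237 CPM of Meis2. The cardiomyocyte-like class then had 475 cells, of which 58.9% were cardiomyocyte-like in the finer clustering, and it included a cluster led by Kazald1 and Tlx1. Without the library term the difference was 0.82 with an edgeR adjusted p of 0.0897. In the other 8 settings with a test Meis2 passed, and Meis1 passed in 4 settings.

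The 2 classes were not uniform, and finer clusters, formed at a higher clustering resolution of 3, were described without a test because they were singled out after their values were seen. Among cardiomyocyte-like cells, one cluster of 89 and 77 cells was led by Shox2 and Hcn4, genes of the sinus venosus and the pacemaker. The other, of 74 and 123 cells, was led by Nppa and Myl3, genes of the working chambers. Pbx3 held 102 and 92.9 CPM in the Shox2 cluster against 24.1 and 49.6 CPM in the Nppa cluster. Meis3 held 102 and 83.3 CPM against 55.0 and 42.5 CPM, and Meis1 142 and 163 CPM against 103 and 85.0 CPM. Pbx2 followed with 46.5 and 51.2 CPM against 31.0 and 16.5 CPM. The Pbx2 levels rest on 20 and 16 UMIs against 9 and 7. For Pbx3, Meis3, Meis1 and Pbx2 both Shox2-cluster libraries were the higher ones. For Meis2 the libraries overlapped at 184 and 112 CPM against 141 and 151 CPM. In the Shox2 cluster Meis2 led Meis1 in replicate 1, with 79 against 61 UMIs, and Meis1 led in replicate 2, with 51 against 35. In the Nppa cluster Meis2 led Meis1 in both libraries. The share of all genes that separate these clusters in the same way was not counted.

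The mesenchyme split into 5 finer clusters, and in one of them Meis1 outnumbered Meis2. That cluster, of 73 and 91 cells, was led by Crhbp and Rspo2 and held Osr1 at 666 and 612 CPM, Tbx5 at 310 and 214 CPM and Wnt2 at 329 and 274 CPM, the highest Osr1 and Wnt2 levels of the 5 in both libraries. Osr1, Tbx5 and Wnt2 are known from the posterior second heart field. Meis1 stood there at 187 and 211 CPM and Meis2 at 165 and 144 CPM. In the cluster led by Cxcl13, Msc and Nkx6-1, Meis1 held 172 and 189 CPM and Meis2 360 and 296 CPM. In that led by Barx1, a marker of stomach mesenchyme, Ifitm1 and Colec10, Meis1 held 214 and 119 CPM and Meis2 372 and 284 CPM.

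Of the UMIs of Meis1 and Meis2 together in the Crhbp cluster, Meis1 made up 53.2% (exact 95% binomial interval 42.6 to 63.6) in replicate 1 and 59.4% (49.2 to 69.1) in replicate 2. In the Cxcl13 cluster it made up 32.3% (27.7 to 37.2) and 39.0% (33.3 to 44.8). The intervals of the Crhbp cluster included 50% in both libraries. In the other 4 mesenchyme clusters Meis2 exceeded Meis1 in both libraries.

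**Figure D3:**
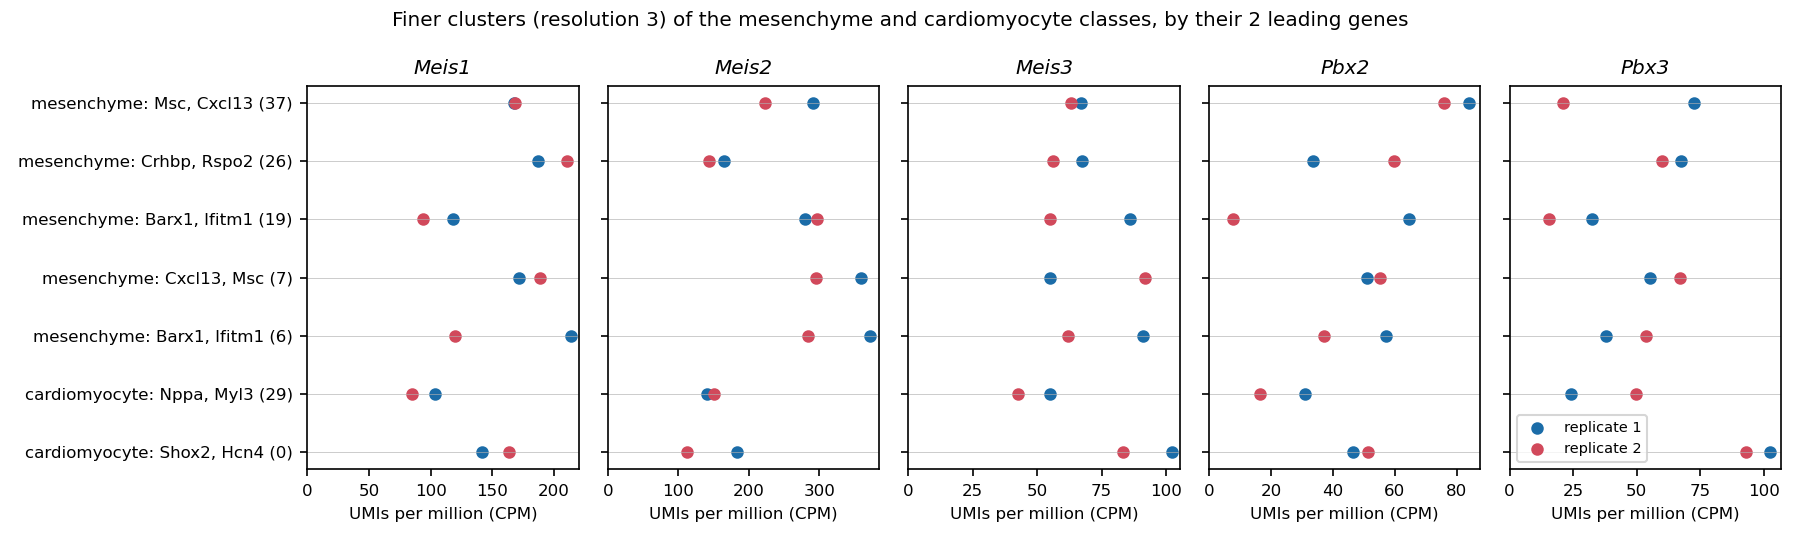
Level of each gene (x axis, CPM, linear) in the 5 finer mesenchyme clusters and the 2 finer cardiomyocyte clusters (y axis, each named by its 2 leading genes and cluster number), 1 point per library. Pbx3, Meis3 and Meis1 are higher in the Shox2, Hcn4 cluster than in the Nppa, Myl3 cluster in both libraries, and Meis2 is lowest of the mesenchyme clusters in the Crhbp, Rspo2 cluster.

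A second split lay in the foregut endoderm-like class. Its cluster led by Vgll2, Fgf8 and Pax9, genes of pharyngeal epithelium, held 570 and 392 CPM of Meis2, while that led by Shh and Nkx2-1 held 115 and 214 CPM. Meis1 ran the other way, with 70.5 and 71.1 CPM against 87.8 and 97.1 CPM. The libraries did not overlap for either gene, and the class mean for Meis2 given above lies between 2 unlike clusters. Among the unnamed clusters, one of 258 cells led by Tlx1 held 153 and 252 CPM of Meis1 and 513 and 349 CPM of Meis2.

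At this depth most SHF or foregut mesenchyme-like cells held no UMI of a given member. Over all kept cells of the class, 33.5% and 29.1% had a Meis1 UMI and 46.3% and 34.4% a Meis2 UMI. After thinning to 1000 UMIs per cell, which kept 443 and 456 cells, the shares were 15.8% and 15.8% for Meis1 and 26.4% and 23.2% for Meis2. In thinned erythroid-like cells, 147 and 145 in number, they were 0.68% and 0% for Meis1 and 0% and 1.38% for Meis2. The unthinned medians were 1736 UMIs in the mesenchyme class and 4910 in erythroid-like cells. A count of 0 in 145 cells allows a share of up to 2.07%, a limit on thinned cells with a UMI and not on cells that express the gene. Meis1 and Meis2 occurred together in 18 and 17 thinned mesenchyme cells, where the product of their shares gives 18.5 and 16.7. The thinned cells thus held both transcripts about as often as the separate shares give.

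Barcodes with 10 to 200 UMIs, which could hold free RNA or be shallow cells, carried 2 and 20 Meis2 UMIs, 2 and 10 Meis1 UMIs, 0 and 1 Meis3 UMIs, 0 and 2 Pbx2 UMIs and 0 and 0 Pbx3 UMIs, out of 8713 and 55494. In replicate 2 that is 360 CPM for Meis2. What these barcodes are, and the part of free RNA in the other levels, was not tested.

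Hox genes, the partners of Meis and Pbx proteins, were compared between the same 2 classes. Of 39 Hox genes 18 passed the filter on low counts, and 11 were higher and 0 lower in SHF or foregut mesenchyme-like than in cardiomyocyte-like cells by edgeR, against 11.5% and 13.5% of all genes. The median log2 fold change was 1.84 over the 18 and 0.02 over all genes tested. Hoxb1, which marks the posterior second heart field, held 93.8 and 120 CPM against 16.8 and 6.46 CPM, a difference of 3.06 ± 0.31 (edgeR adjusted p = 7.26e-12). Hoxa5 held 115 and 81.0 CPM against 31.0 and 14.2 CPM (2.02 ± 0.28), and the libraries of the classes did not overlap for either gene. Hoxb4 (1.35 ± 0.25), Hoxb2 (1.18 ± 0.22), Hoxb5 (2.84 ± 0.57) and Hoxa2 (1.59 ± 0.39) were also higher. Among all named classes, Hoxb1 had its highest mean in pharyngeal mesoderm-like cells (118 and 158 CPM). Hoxa5 had its highest mean in limb, body wall or ectomesenchyme-like cells (133 and 82.9 CPM). A further 6 Hox genes, all from the 5′ ends of their clusters, had 0 UMIs in all kept cells.

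Across the classes, counts of Hox genes called higher did not follow 1 member. Limb, body wall or ectomesenchyme-like cells had 15 of the 18 higher, against 6.42% of all genes in that class. SHF or foregut mesenchyme-like cells had 13 (10.1% of all genes) and neural tube-like cells 11 (7.32%). Pharyngeal mesoderm-like (5.37%), neuron-like (5.55%) and neural crest or glia-like cells (8.66%) had 10 each. Surface ectoderm-like and paraxial mesoderm-like cells, both called higher for Meis1 and Meis2, had 5 (10.6%) and 3 (6.62%). Cardiomyocyte-like cells, called higher for Meis1, Meis3 and Pbx3, had 0 higher and 1 lower, against 18.2% and 9.56% of all genes. Hepatoblast-like and erythroid-like cells had 0 higher and 7 lower each, where 3.95% and 24% of all genes were lower.

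Other TALE genes were Pknox, Tgif, Irx and Mkx genes and Pbx4. Of 12, 9 were tested, and 2 were higher and 0 lower in SHF or foregut mesenchyme-like than in cardiomyocyte-like cells, with a median of 1.11. That median is the value of Irx2, which had 11 UMIs in the mesenchyme and 2 in cardiomyocyte-like cells (edgeR adjusted p = 0.484). Over all genes 11.5% were higher and 13.5% lower. Tgif1, a repressor in TGF-beta signalling, held 59.1 and 60.4 CPM against 21.9 and 22.0 CPM (1.34 ± 0.25, edgeR adjusted p = 3.24e-05). Irx3 held 31.4 and 27.6 CPM against 10.3 and 2.58 CPM (2.06 ± 0.49, edgeR adjusted p = 0.000835) and was highest in pharyngeal mesoderm-like cells, at 145 ± 5.67 CPM. Pknox1 (Prep1), a Meis relative that also binds Pbx proteins, held 58.6 and 60.4 CPM against 42.6 and 37.5 CPM and did not pass (0.47 ± 0.27, edgeR adjusted p = 0.230). Tgif2 (0.55 ± 0.24, edgeR adjusted p = 0.0796) did not pass, nor did Irx1 with 17 against 1 UMIs, a ratio per UMI of 7.75 (exact 95% interval 1.21 to 324; edgeR adjusted p = 0.110). Tgif2 was highest in neuron-like cells (89.8 ± 20.3 CPM), and Irx1 (34.4 ± 0.962 CPM) and Irx2 (50.4 ± 27.9 CPM) in foregut endoderm-like cells. Irx5 was highest in pharyngeal mesoderm-like cells (47.5 ± 8.50 CPM) and Pbx4 in neural tube-like cells (21.8 ± 17.8 CPM).

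**Figure D4:**
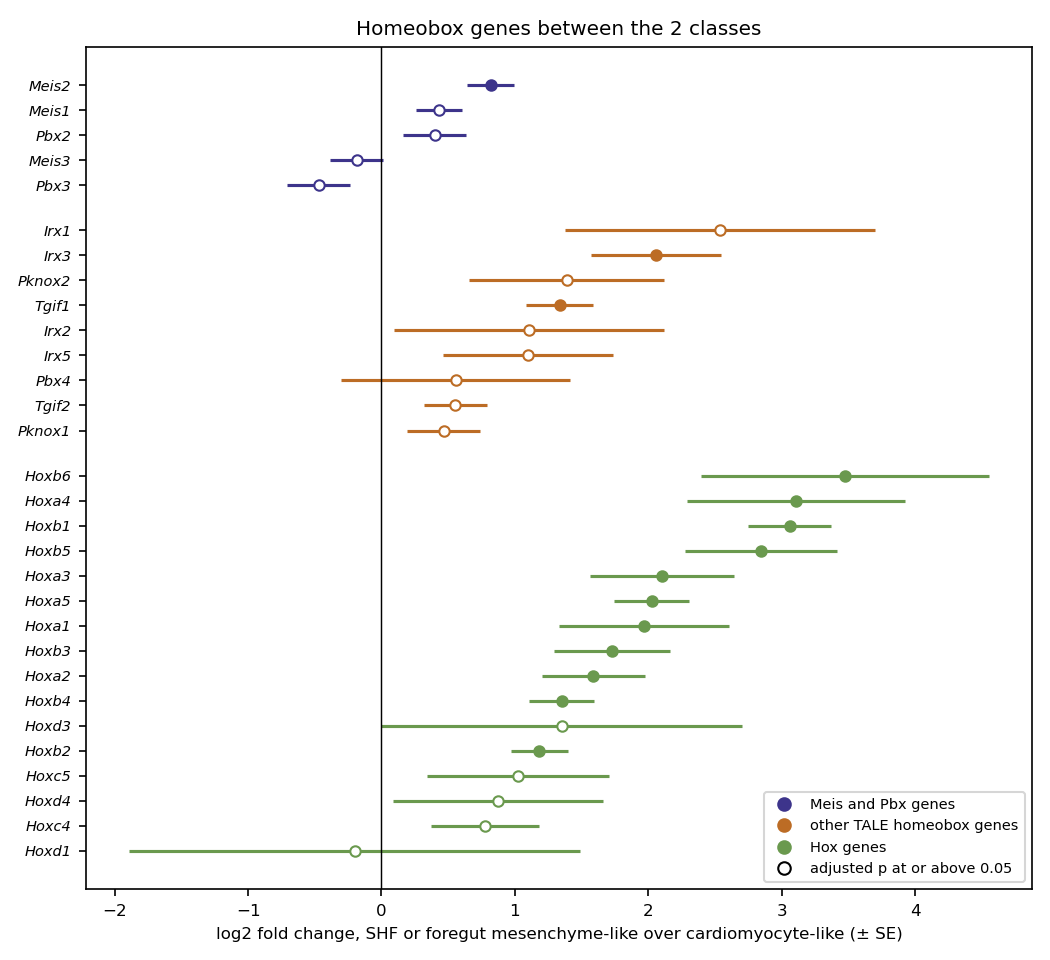
Log2 fold change of SHF or foregut mesenchyme-like over cardiomyocyte-like cells (x axis, ± SE from edgeR) for the 5 Meis and Pbx genes, 9 other TALE genes and 16 Hox genes (y axis), with filled points where the adjusted p was under 0.05. Hoxb8 and Hoxc6 were tested and are not drawn, since cardiomyocyte-like cells had 0 of their UMIs. Of the Meis and Pbx genes, Meis2 alone is filled, at 0.82, while 11 Hox genes are.

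Genes of retinoic acid handling and response were measured in the same classes. Of 15, 11 were tested, and 2 were higher and 0 lower in SHF or foregut mesenchyme-like than in cardiomyocyte-like cells (11.5% and 13.5% of all genes), with a median of 0.34. Rdh10, which makes retinaldehyde from retinol, held 42.3 and 39.9 CPM against 11.6 and 3.88 CPM (2.28 ± 0.42, edgeR adjusted p = 2.23e-05). Stra6, a retinol uptake receptor, had 84 UMIs against 2, a ratio per UMI of 19.1 (exact 95% interval 5.14 to 161). Ncoa7, a nuclear receptor coactivator and the next by adjusted p, stood at -0.55 ± 0.33 and did not pass (edgeR adjusted p = 0.254). Crabp1, a cellular retinoic acid binding protein, held 90.6 and 173 CPM against 60.6 and 106 CPM (0.53 ± 0.34, edgeR adjusted p = 0.293) and did not pass.

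Of 6 genes listed as linked to Pbx and Meis proteins, 2 were lower and 0 higher in the mesenchyme (13.5% and 11.5% of all genes), with a median of -0.20. Pbxip1, whose product binds Pbx proteins and keeps them from DNA, held 18.4 and 9.64 CPM in SHF or foregut mesenchyme-like cells against 54.2 and 69.8 CPM in cardiomyocyte-like cells (-2.23 ± 0.35, edgeR adjusted p = 9.05e-07). It was at its highest of the 15 classes in cardiomyocyte-like cells, as Pbx3 was. Cul4a, a ubiquitin ligase scaffold, held 70.5 and 48.2 CPM against 82.6 and 85.3 CPM (-0.60 ± 0.19, edgeR adjusted p = 0.0156). Trib2 (1.19 ± 0.62, edgeR adjusted p = 0.163) and Cul4b (-0.36 ± 0.19, edgeR adjusted p = 0.189) did not pass.

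The genes most like each member were sought by Pearson's r of log2(CPM + 5) over the 30 sums of class and library. The search covered 6500 genes with at least 20 CPM on average over the sums. These sums share libraries and cell depth, so r is a description. For Meis1 they were Pex13 (0.907), Zfp462 (0.879) and Efnb1 (0.873), and for Meis2 they were H2afy2 (0.910), Zfp462 (0.909) and Pard6g (0.890). Nnat (0.868), Tcp11l1 (0.841) and Rara (0.833) were most like Meis3. Ddx6 (0.892), Phf14 (0.891) and Mtf2 (0.881) were most like Pbx2, and Sfrp1 (0.830), Ptn (0.789) and Dzip1l (0.779) most like Pbx3. Among the members r was largest for Meis1 and Meis2 (0.83) and smallest for Pbx2 and Pbx3 (0.43).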

How the data were processed

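The deposited files hold UMI counts per gene and barcode for each of the 2 Drop-seq libraries. The labels name build mm10, and the submitters' processing notes name Scanpy, without a version. No source used here names the aligner, counter or annotation, and 99.7% of the gene identifiers were found in GENCODE M21. Barcodes under 400 genes or over 10% mitochondrial UMIs were dropped. Scrublet called 0 and 1 doublets, so it did not work here, and the 5% of cells with the highest scores were removed instead (174 and 191 cells). Cells were clustered with scanpy 1.11.5 (2000 variable genes, 30 principal components, 20 neighbours, Leiden resolution 2) on a random 70% of genes plus the markers, without the members and lists. Mitochondrial, ribosomal protein, haemoglobin and some sex-linked genes were left out of the clustering too. Clusters were named from at least 3 raised markers. The joint SHF or foregut mesenchyme name, the name Dlx5-high and the counting of chamber genes as cardiomyocyte markers were decided after the clusters were seen. UMI counts were summed per class and library and tested with edgeR 4.0.16 (TMM, filterByExpr, terms for class and library, 14 residual degrees of freedom, Benjamini-Hochberg, threshold 0.05). Spread shared over genes added 41.8 prior degrees of freedom. Only genes left out of the clustering were tested. The library term was in the design because all classes of a pool share 1 library, and same-library deviations of classes correlated at 0.23 to 0.75 over 1241 genes. On simulated data the fit for SHF or foregut mesenchyme-like against cardiomyocyte-like cells recovered 61% of 100 genes changed 2-fold and 93% of 100 changed 4-fold, and called 2 unchanged genes. The 2 simulated classes carried no library effect and used the fitted spread per gene, and the lowest genes were not among those changed. These figures therefore do not measure error in the real counts. DESeq2 1.42.0 was an alternative. Intervals and the 3-count limit for a count of 0 cover counting error only. Named genes outside the members were, per list, the 4 with the smallest adjusted p (6 for Hox), TALE genes with at least 20 CPM in a class, and the 3 most alike genes per member. The members and lists were chosen with earlier results of these data known. Some listed genes are not reported here.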

Additional observations from a re-analysis of the deposited data

How the results depend on the processing

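For SHF or foregut mesenchyme-like against cardiomyocyte-like cells, 397 genes were higher and 464 lower, of the 3442 tested genes left out of the clustering. Without the replicate block, the library term, they were 105 and 241, and thinning to 1000 UMIs per cell gave 99 and 179 of 1775 genes tested. With at least 800 genes per cell 225 were higher. Of pairs of member and class, 21 were higher and 12 lower, against 13 higher without the replicate block and 6 lower after thinning. The difference for Meis3 between the 2 classes, -0.18, became 0.12 with at least 800 genes per cell, and passed in neither. Of 316 values for the 33 member and class calls, 272 kept the call, 44 lost it and 0 changed sign. Meis1 in SHF or foregut mesenchyme-like and cardiomyocyte-like cells, Pbx3 in cardiomyocyte-like cells, Meis3 in neuron-like cells and Meis2 in pharyngeal mesoderm-like cells kept theirs in every setting with that class. Meis2 had the largest Meis share in both libraries in 12 of 16 to 10 of 11 classes over the settings for cells and clusters. With 1 library left out the members have values and no test. A class absent under a setting gave no value there, and low counts limit the neuron-like values, where Pbx3 had 2 and 4 UMIs. The cause of each change was not tested.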

Other observations

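Dlx5-high cells held the highest means of the posterior genes Hoxa9 (105 ± 130 CPM), Hoxd9 (52.3 ± 59.3 CPM) and Hoxd10 (42.1 ± 37.4 CPM) among the 15 classes, with Dlx1, Dlx2, Dlx5, Dlx6 and Twist1 among their raised markers. These means rest on replicate 1, with 197 CPM of Hoxa9, 94.3 CPM of Hoxd9 and 68.6 CPM of Hoxd10, against 13.5, 10.4 and 15.6 CPM in replicate 2. Hoxa9 had 91 UMIs in all kept cells and 0 in both SHF or foregut mesenchyme-like and cardiomyocyte-like cells. Hoxa9 and the raised markers entered the naming of the Dlx5-high class, so their high levels there are not separate results. The class made up 1.58% of cells in replicate 1 and 4.20% in replicate 2, so most of its Meis and Pbx UMIs came from replicate 2. Retinoic acid carriers were unevenly spread, with the highest class mean of Crabp1 in neuron-like cells (7778 ± 2225 CPM) and of Crabp2 in neural tube-like cells (2470 ± 96.1 CPM), against 132 and 314 CPM in SHF or foregut mesenchyme-like cells.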
